A study of Mus musculus with 12 samples.

Results

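The genes described here handle carotenoids and retinol: Rbp2, Bco1, Bco2, Lrat, Retsat, Isx, Scarb1 and Crabp2. They were chosen by symbol, with no measured value in the rule, though earlier results of these data were known at the time. All 8 had a row among the 32587 gene rows measured in each library. RNA was sequenced from wild-type mouse organoids, which are cultures of intestinal epithelium grown from duodenum. After 2 days in a commercial organoid growth medium, the organoids were given a bile acid, CA, CDCA or DCA, or DMSO, a solvent, with 3 libraries in each of the 4 groups. CA (cholic acid) and CDCA (chenodeoxycholic acid) are made by the liver, and gut bacteria turn CA into DCA (deoxycholic acid) by removing a hydroxyl group. Each acid is labelled 50 mmol/L, and its exposure both 2 days and 96 hours. A concentration this high is unusual for cultured cells and its unit is in doubt, so dose is taken only as equal between the acids. Whether replicate libraries came from separate mice or cultures is not labelled, so the p-values measure the spread between libraries, which may be technical.

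Carotenoids from food enter the enterocyte, the absorptive cell of the gut, through the lipid receptor SR-B1, the product of Scarb1. BCO1 cuts β-carotene at its centre to give retinal, while BCO2 cuts carotenoids off centre and also accepts xanthophylls. Retinal is reduced to retinol on the carrier RBP2, retinol is esterified by LRAT, and the esters leave the cell in chylomicrons. RETSAT saturates a double bond of retinol. Part of the retinal is oxidised to retinoic acid, which CRABP2 carries to nuclear receptors, and in the mouse gut retinoic acid induces ISX, a repressor of Bco1 and Scarb1.

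Levels are in TPM, the share of a library's transcripts that a gene holds after scaling for length. The read depth behind a TPM value is unknown, so no counting error is attached to it, and low values such as those of Lrat and Bco1 are the least certain. Differences are log2 fold changes of TPM + 1, so that those of low genes are understated, from limma over the 11952 genes that reached 1 TPM in 3 or more libraries. A gene was called at a Benjamini-Hochberg adjusted p of 0.05 over all of these genes. Of the 8 genes, 6 were tested, and each of the 6 had over 1 TPM in every library (lowest value 1.10 TPM, Lrat). Each acid was compared with the same 3 DMSO libraries, so these comparisons are not independent.

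The 12 libraries summed to 889156 to 936841 TPM. The ileal bile acid binding protein gene Fabp6, a known target of the bile acid receptor FXR, rose in all 3 acids (log2 fold changes of 6.53 in CA, 6.89 in CDCA and 9.14 in DCA, limma adjusted p = 0.00466, 0.000705 and 1.81e-05). Epithelial markers (Epcam, Cdh1, Krt8, Krt18, Cdx2) summed to 2162 to 2829 TPM per library and the proximal markers Gata4, Pdx1 and Onecut2 to 94.0 to 122 TPM, while the ileal Slc10a2 was at most 0.822 TPM. The other distal marker listed, Osr2, was at 3.54 to 8.65 TPM and was called higher in DCA (log2 fold change 0.76). The proximal marker Gata4 was called higher in DCA as well (mean 85.0 TPM in DMSO, 103 TPM in DCA), while Pdx1 and Onecut2 did not pass. Of the epithelial markers, Krt8, Krt18 and Cdx2 were called lower in DCA (Krt18 mean 549 TPM in DMSO, 290 TPM in DCA), and Epcam and Cdh1 did not pass. Mesenchymal markers summed to 3.32 to 6.25 TPM with Dcn listed at 0. Enterocyte markers moved with DCA: 14 of 15 rose, and their summed level was 1753 to 2824 TPM in DMSO, 2782 to 4223 TPM in CA, 1938 to 3032 TPM in CDCA and 5193 to 6884 TPM in DCA. All 6 stem cell markers fell in DCA, from sums of 453 to 945 TPM in DMSO to 122 to 142 TPM. Markers of other lineages were lower in DCA as well, with 6 of 6 Paneth, 4 of 6 goblet, 4 of 4 tested tuft and 3 of 6 enteroendocrine markers called. Over all tested genes, 18.8% were called higher and 19.2% lower in DCA against DMSO. Within the other groups, CDCA replicate 3 (enterocyte sum 3032 TPM, stem sum 277 TPM) stood apart from the rest of CDCA (at most 2056 and at least 581 TPM), and DMSO replicate 1 had the highest enterocyte sum (2824 TPM) and the lowest stem sum (453 TPM) of DMSO. Values without these libraries are given where they change a call. In bulk RNA a smaller number of cells of one type and less RNA per cell cannot be told apart.

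Rbp2, Scarb1 and Retsat were the abundant members and Bco2 was intermediate, while Bco1 and Lrat were low. Among all 11952 genes ranked by TPM within a library, with 1 the most abundant, Rbp2 ranked between 513 and 3239, Scarb1 between 963 and 2359, Retsat between 959 and 2818, Bco2 between 1881 and 8873, Bco1 between 8212 and 11073 and Lrat between 10194 and 11517. The span of Bco2 was the widest of the 6. Isx and Crabp2 were near the floor. Isx was listed at 0 in DMSO replicate 3, CDCA replicate 1 and DCA replicates 1 and 2, and its highest value was 0.109 TPM in CA replicate 3. Crabp2 lay between 0.0757 TPM in CDCA replicate 3 and 0.947 TPM in DMSO replicate 3, and its highest CDCA library (0.168 TPM) was below every DMSO and CA library, though within the range of DCA, while the other groups overlapped. Neither gene was tested, and Crabp1, the paralog of Crabp2, was listed at 0 in every library but CDCA replicate 1 (0.107 TPM).

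**Figure D1:**
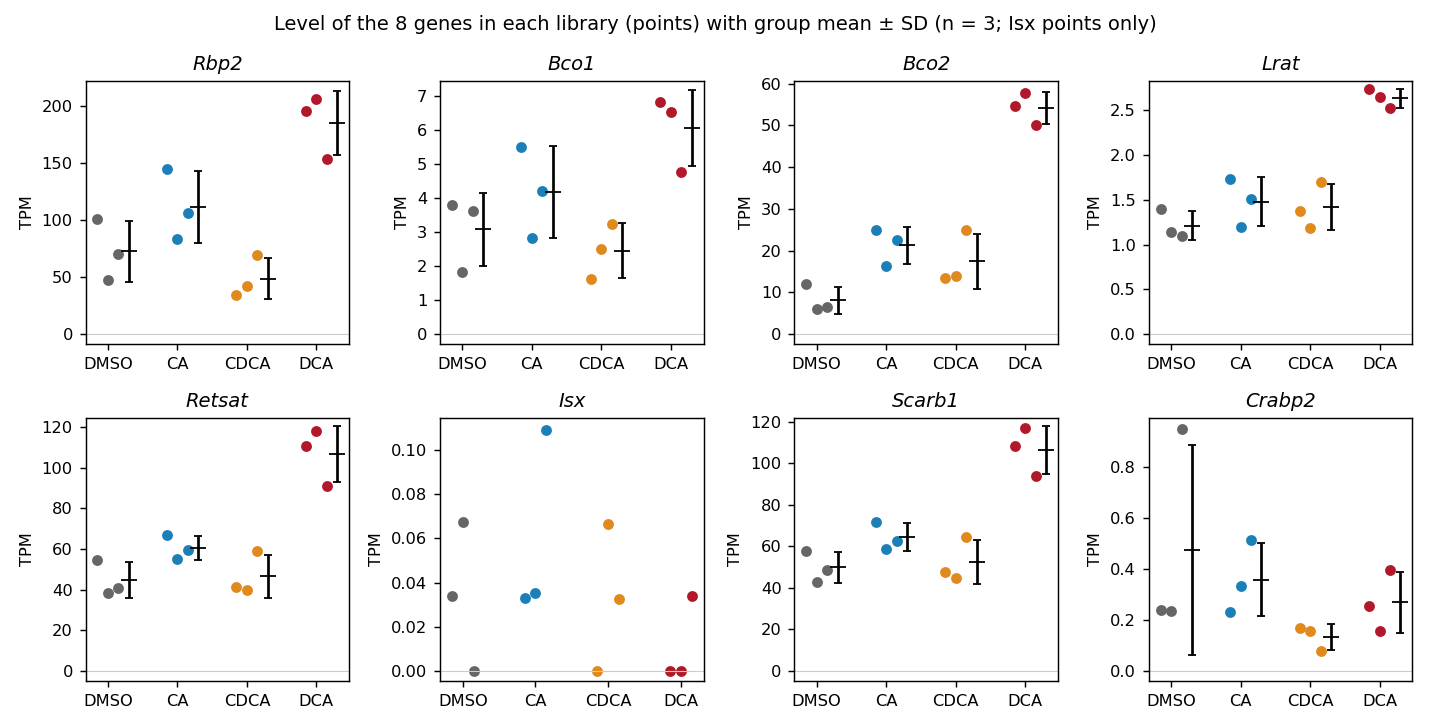
Level of each of the 8 genes in TPM (y axis, 1 scale per gene) in the 12 libraries (points, by group on the x axis) with the group mean ± SD (n = 3), and points alone for Isx, which has values of 0. In Rbp2, Bco1, Bco2, Lrat, Retsat and Scarb1 the 3 DCA libraries sit above the 3 DMSO libraries, whereas Isx stays at or below 0.109 TPM and Crabp2 below 1 TPM.

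All 6 tested genes rose in DCA against DMSO, where 18.8% of all tested genes were called higher and 19.2% lower. Their median log2 fold change was 1.16, beside -0.02 over all tested genes, and the 6 genes had no DCA library within the DMSO range, as did 24.2% of all tested genes in that direction. Bco2 had the largest change and Lrat the smallest on this scale. As a ratio of mean TPM, Bco2 was still the largest (6.68), but Bco1 was the smallest (1.97), with Lrat at 2.18.

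Scarb1, the uptake receptor, had 57.9, 43.0 and 48.6 TPM in the DMSO libraries and 108, 117 and 93.8 TPM in the DCA libraries. The lowest DCA library stood well above the highest DMSO library. The mean went from 49.8 ± 7.52 to 106 ± 11.8 TPM (SD, n = 3), a log2 fold change of 1.08 (95% interval 0.77 to 1.40, limma adjusted p = 0.000190).

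Bco2, the off-centre oxygenase of the inner mitochondrial membrane, had 11.9, 5.99 and 6.40 TPM in DMSO and 54.7, 57.6 and 50.0 TPM in DCA. The DCA libraries were close to each other, and all were above every library of the other groups. The mean rose 6.68-fold, from 8.09 ± 3.30 to 54.1 ± 3.84 TPM (SD, n = 3), with a log2 fold change of 2.65 (95% interval 2.09 to 3.22, limma adjusted p = 4.25e-05). Bco1, the central oxygenase of the cytosol, had 3.78, 1.82 and 3.61 TPM in DMSO and 6.82, 6.53 and 4.76 TPM in DCA. Here DCA replicate 3 was nearer to the highest DMSO library than to the other DCA libraries. Its mean rose 1.97-fold, from 3.07 ± 1.08 to 6.04 ± 1.12 TPM (SD, n = 3), with a log2 fold change of 0.82 (95% interval 0.27 to 1.36, limma adjusted p = 0.0212). The Bco1 call was lost without DMSO replicate 2 (0.57, limma adjusted p = 0.0993), DCA replicate 1 (limma adjusted p = 0.0757) or DCA replicate 2 (limma adjusted p = 0.0695).

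Rbp2, the retinol and retinal carrier of the enterocyte, had 101, 47.6 and 70.3 TPM in DMSO and 196, 206 and 153 TPM in DCA. The groups did not overlap, although the DMSO libraries were spread widely around their mean. The mean rose 2.54-fold, from 72.9 ± 26.8 to 185 ± 28.0 TPM (SD, n = 3), with a log2 fold change of 1.39 (95% interval 0.71 to 2.06, limma adjusted p = 0.00480). Lrat, the esterifying enzyme, had 1.40, 1.14 and 1.10 TPM in DMSO and 2.74, 2.65 and 2.52 TPM in DCA. The DCA values were tight and lay above all 9 other libraries. Its mean went from 1.21 ± 0.163 to 2.64 ± 0.108 TPM (SD, n = 3), with a log2 fold change of 0.72 (95% interval 0.42 to 1.02, limma adjusted p = 0.00145). Retsat, the retinol saturase, had 54.9, 38.4 and 40.9 TPM in DMSO and 111, 118 and 91.3 TPM in DCA. These groups did not overlap either, and the log2 fold change was 1.25 (95% interval 0.89 to 1.60, limma adjusted p = 0.000168).

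**Figure D2:**
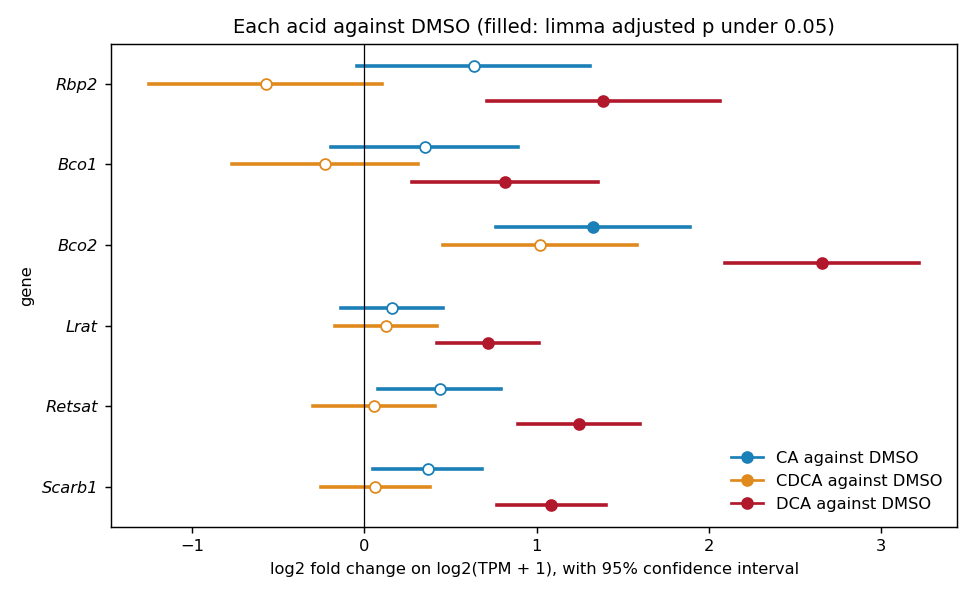
Log2 fold change against DMSO (x axis, on the log2(TPM + 1) scale) of the 6 tested genes (y axis) in CA, CDCA and DCA, with 95% intervals from limma over 12 libraries and filled points for calls. Each of the 6 DCA points is called, from 0.72 for Lrat to 2.65 for Bco2, whereas in CA only Bco2 (1.33) is called and in CDCA none is.

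In CA, Bco2 rose and the other 5 tested genes did not pass the test, in a comparison where 0.569% of all tested genes were called higher. Bco2 had 24.8, 16.4 and 22.6 TPM in the CA libraries, each above the highest DMSO library (11.9 TPM). The mean of 21.2 ± 4.37 TPM (SD, n = 3) was 2.62 times that of DMSO, and the log2 fold change was 1.33 (95% interval 0.76 to 1.89, limma adjusted p = 0.0477). This call sat at the threshold and was lost on leaving out any single library other than DMSO replicate 1 or CDCA replicate 3, with log2 fold changes of 1.17 to 1.61 and limma adjusted p-values of 0.00914 to 0.209 over the 12 leave-outs. Scarb1 (71.8, 58.6 and 62.8 TPM in CA, 0.37, 95% interval 0.05 to 0.69, limma adjusted p = 0.263) and Retsat (66.7, 54.9 and 59.4 TPM, 0.44, 95% interval 0.08 to 0.79, limma adjusted p = 0.238) were in every CA library above every DMSO library without passing. With Bco2 they made up 3 genes with no overlap, as had 11.8% of all tested genes in that direction, and 3 genes with an unadjusted p under 0.05, as had 14.8% of all tested genes.

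Rbp2 had 145, 83.4 and 106 TPM in CA, and the lowest of these fell within the DMSO range. Its log2 fold change of 0.63 (95% interval -0.04 to 1.31, limma adjusted p = 0.371) did not pass. Bco1 (5.51, 2.81 and 4.20 TPM in CA, 0.35, limma adjusted p = 0.555) and Lrat (1.74, 1.19 and 1.51 TPM, 0.16, limma adjusted p = 0.625) overlapped DMSO as well.

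In CDCA, 0 of the 6 tested genes passed with limma, and 0.510% of all tested genes were called higher. At an unadjusted p under 0.05 the count was 1, Bco2, against 9.77% of all tested genes. Bco2 had 13.4, 13.8 and 25.0 TPM in the CDCA libraries, with replicate 3 standing above the other two and all 3 above the DMSO libraries. It was also the single gene of the 6 with no overlap in this direction, as were 6.97% of all tested genes. The mean of 17.4 ± 6.58 TPM (SD, n = 3) was 2.15 times that of DMSO, with a log2 fold change of 1.02 (95% interval 0.46 to 1.58, limma adjusted p = 0.142). Without DMSO replicate 1, the highest DMSO library for this gene, the difference was 1.30 and passed (limma adjusted p = 0.0304).

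Rbp2 was at 34.4, 42.3 and 69.1 TPM in CDCA, of which the first pair lay below every DMSO library and the last within the DMSO range. Its log2 fold change was -0.57 (95% interval -1.25 to 0.10, limma adjusted p = 0.641). Bco1 had 1.62, 2.49 and 3.23 TPM (-0.23, limma adjusted p = 0.873) and Lrat 1.37, 1.19 and 1.70 TPM (0.13, limma adjusted p = 0.870), both overlapping DMSO. Scarb1 was at 47.6, 44.9 and 64.6 TPM and Retsat at 41.2, 40.0 and 58.9 TPM, with log2 fold changes of 0.06 each (limma adjusted p = 0.960 and 0.971). In both genes, as in Rbp2, Bco1, Bco2 and Lrat, CDCA replicate 3 was the highest of its group.

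The 3 acids differ from one another in which hydroxyl groups the steroid ring carries: CDCA and DCA each lack a different hydroxyl group of CA. At the same labelled dose and time, the 6 tested genes were compared between the 3 pairs of acids, with p-values adjusted over all tested genes in each pair. DCA was above CDCA in all 6, where 12.8% of all tested genes were called higher. The log2 differences were 1.96 for Rbp2 (limma adjusted p = 0.00167), 1.63 for Bco2 (limma adjusted p = 0.00134), 1.19 for Retsat, 1.04 for Bco1, 1.02 for Scarb1 and 0.59 for Lrat (limma adjusted p of 0.000768 to 0.00865 for these 4).

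DCA was above CA in 4 of the 6, where 5.79% of all tested genes were called higher. Bco2 differed by 1.33 (95% interval 0.76 to 1.89, limma adjusted p = 0.00812), Retsat by 0.81 (limma adjusted p = 0.00892), Scarb1 by 0.72 (limma adjusted p = 0.00910) and Lrat by 0.56 (limma adjusted p = 0.0198). The Lrat call was lost without CA replicate 2 (limma adjusted p = 0.0926), CA replicate 3 (limma adjusted p = 0.0538), DCA replicate 1 (limma adjusted p = 0.0752) or DCA replicate 2 (limma adjusted p = 0.0751). Rbp2 (0.75, 95% interval 0.07 to 1.43, limma adjusted p = 0.126) and Bco1 (0.47, 95% interval -0.08 to 1.01, limma adjusted p = 0.230) did not pass, and the interval for Rbp2 leaves room both for almost no difference and for one as large as that of Bco2. All 3 DCA libraries lay above all 3 CA libraries in 5 of the 6 genes, Bco1 being the exception, as in 16.9% of all tested genes.

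Between CDCA and CA, limma called 0 of the 6 and 0.0335% of all tested genes. At an unadjusted p under 0.05 there were 3, Rbp2, Bco1 and Retsat, each lower in CDCA, against 7.20% of all tested genes. Rbp2 showed the widest gap: its highest CDCA library (69.1 TPM) was below its lowest CA library (83.4 TPM), and the log2 difference was -1.21 (95% interval -1.88 to -0.53, limma adjusted p = 0.401). It alone among the 6 had no overlap, as had 6.47% of all tested genes in that direction. Bco2 differed by -0.31 between CDCA and CA (limma adjusted p = 0.869), with a 95% interval of -0.87 to 0.26 that still includes a clear drop in CDCA.

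To set each gene beside the enterocyte markers that moved with DCA, the mean log2(TPM + 1) of the 15 markers was subtracted in every library. With 3 libraries against 3 the exact permutation test cannot go below 0.1, so no value here can pass 0.05. Bco2 stood higher relative to the markers in every acid, by 0.73 in CA, 1.03 in CDCA and 1.39 in DCA (exact two-sided permutation p = 0.1 each). Its relative values ran from -2.77 to -2.44 in DMSO, -1.92 to -1.82 in CA, -1.61 to -1.54 in CDCA and -1.27 to -1.17 in DCA, so the 4 groups did not overlap. The share of all tested genes whose groups separate on this scale was not computed, so how unusual this is remains unknown.

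The other genes followed a different course on this scale. In DCA, Rbp2 differed from DMSO by 0.12, Retsat by -0.02 and Scarb1 by -0.18, with overlapping groups (exact two-sided permutation p = 0.5, 0.9 and 0.2). Bco1 (-0.45) and Lrat (-0.55) were lower relative to the markers in all 3 DCA libraries than in any DMSO library (exact two-sided permutation p = 0.1 each), and Lrat was so in CA too (-0.43, exact two-sided permutation p = 0.1). The markers had a median log2 fold change of 1.49 in DCA, beside -0.02 over all tested genes. A gene unchanged in DCA would therefore also stand lower on this scale. The share of all tested genes that do so was not computed. Being low genes, Bco1 and Lrat are compressed by the pseudocount of 1 more than the abundant markers are. Rbp2 in CDCA was lower by 0.56 than in DMSO (acid minus DMSO -0.56), without overlap (exact two-sided permutation p = 0.1). The part of enterocyte number in these results was not tested.

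**Figure D3:**
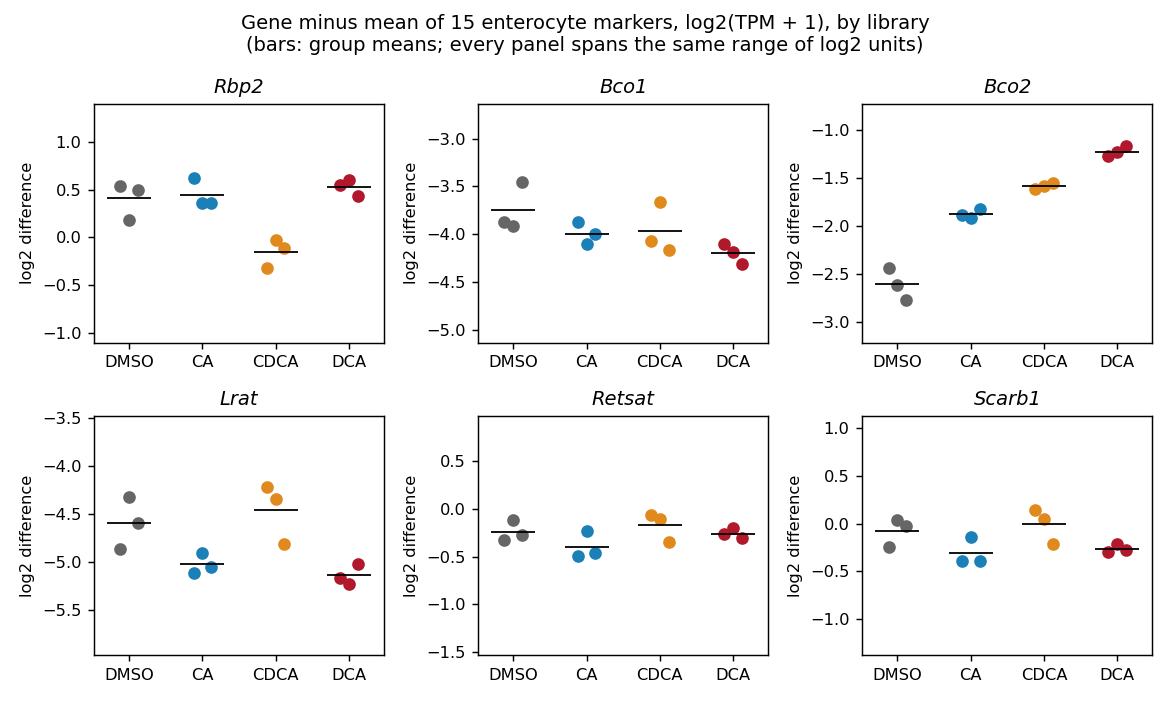
Log2(TPM + 1) of each of the 6 tested genes minus the mean of 15 enterocyte markers (y axis) in the 12 libraries (points, by group on the x axis), with bars for group means. For Bco2 the groups form 4 separate steps from DMSO (-2.77 to -2.44) to DCA (-1.27 to -1.17), while for Retsat and Scarb1 all 3 acids overlap DMSO.

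The RNA levels of the oxygenases were set beside each other as the ratio of Bco2 to Bco1 in TPM, a quantity chosen after the values were seen. Its denominator was low, at 1.62 to 6.82 TPM. The ratio was 3.14, 3.28 and 1.78 in DMSO, 4.51, 5.83 and 5.37 in CA, 8.32, 5.55 and 7.74 in CDCA, and 8.01, 8.83 and 10.5 in DCA. Every acid library lay above every DMSO library. CA overlapped CDCA, and CDCA overlapped DCA, whereas CA and DCA did not overlap. The log2 ratio was higher than in DMSO by 0.98 in CA, 1.43 in CDCA and 1.78 in DCA (exact two-sided permutation p = 0.1 each, the smallest possible). Because the ratio was picked from these values, its separation from DMSO is a description and supports nothing on its own.

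**Figure D4:**
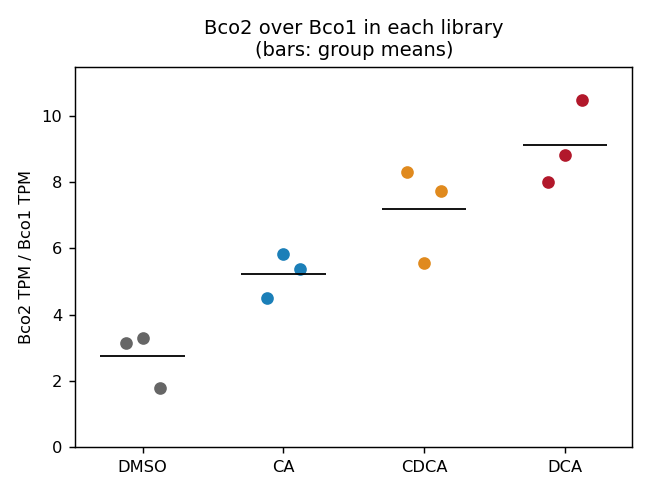
Ratio of Bco2 TPM to Bco1 TPM (y axis, linear scale) in the 12 libraries (points, by group on the x axis), with bars for group means. The DMSO libraries sit between 1.78 and 3.28 and all 9 acid libraries above them, the highest being 10.5 in DCA.

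In the mouse reference annotation used for names, Bco2 overlaps Il18, a cytokine gene of the epithelium, on the opposite strand. Il18 had 16.4, 6.45 and 7.23 TPM in DMSO, 30.4, 21.7 and 31.9 TPM in CA, 14.6, 13.9 and 32.0 TPM in CDCA, and 53.8, 54.1 and 47.3 TPM in DCA. The 4 highest libraries for Il18, the DCA libraries and CDCA replicate 3, were also the 4 highest for Bco2. This order is not particular to the pair. The same 4 libraries were highest for Fabp6 (755 to 1653 TPM, at most 306 TPM elsewhere), which does not overlap Bco2. They were also highest for the retinoid gene Rdh9 (3.72 to 4.49 TPM, at most 3.06 TPM elsewhere). The changes of Il18 were 1.49 on the log2 scale in CA (limma adjusted p = 0.0821), 0.95 in CDCA (limma adjusted p = 0.370) and 2.36 in DCA (limma adjusted p = 0.000407). The libraries were prepared with marked second strands per the labels, but the strand setting of the quantification is not given in the sources used here. Whether reads of the overlap were shared between these genes was not tested.

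Upstream sequences from RefSeq on build GRCm38.p6 were found for 6 of the 8 genes, Scarb1 and Crabp2 having none in the table, and cover the 250 bases before each start. The windows of Rbp2, Bco1 and the 2 listed starts of Bco2 are printed, 5′ to 3′ on the gene's strand. A link between motifs and the size of the changes was not tested. Capitals mark TGACCTTTG, the reverse complement of CAAAGGTCA, which ends in the AGGTCA core that many nuclear receptors recognise. The 9-base string was chosen after the sequences were read. Rbp2, chr9:98490287-98490536, plus strand, Bco1, chr8:117095615-117095864, plus strand, and Bco2, chr9:50555139-50555388 for start 1 and chr9:50553663-50553912 for start 2, minus strand, read:
Rbp2: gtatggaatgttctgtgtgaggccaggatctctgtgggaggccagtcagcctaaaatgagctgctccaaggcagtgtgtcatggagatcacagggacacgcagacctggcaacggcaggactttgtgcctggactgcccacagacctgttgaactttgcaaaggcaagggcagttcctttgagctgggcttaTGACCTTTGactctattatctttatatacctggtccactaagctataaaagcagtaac
Bco1: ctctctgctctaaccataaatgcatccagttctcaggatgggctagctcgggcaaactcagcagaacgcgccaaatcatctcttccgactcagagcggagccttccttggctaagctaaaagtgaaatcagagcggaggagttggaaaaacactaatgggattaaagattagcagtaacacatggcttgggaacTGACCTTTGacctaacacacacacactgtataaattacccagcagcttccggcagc
Bco2 start 1: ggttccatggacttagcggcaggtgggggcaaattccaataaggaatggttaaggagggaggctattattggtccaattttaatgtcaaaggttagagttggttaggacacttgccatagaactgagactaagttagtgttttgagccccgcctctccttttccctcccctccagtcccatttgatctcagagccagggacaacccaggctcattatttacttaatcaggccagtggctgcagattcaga
Bco2 start 2: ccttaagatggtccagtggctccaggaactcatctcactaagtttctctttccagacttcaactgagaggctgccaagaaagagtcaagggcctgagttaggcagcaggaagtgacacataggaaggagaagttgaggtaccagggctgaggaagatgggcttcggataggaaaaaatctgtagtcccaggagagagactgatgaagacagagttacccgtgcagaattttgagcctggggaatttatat
TGACCTTTG lies 58 to 50 bases before the start of Rbp2 and 56 to 48 bases before that of Bco1, and either strand of it occurs in 0.426% of 32851 RefSeq windows of this length. AGGTCA, which that string contains, was found on either strand in 14.0% of windows, among these genes in Rbp2 and Bco1. In Rbp2 it lay 58 to 53 bases before the start, and in Bco1 both 56 to 51 and 49 to 44 bases before. TATAAA (12.4% of windows) was found in Rbp2, Bco1, Retsat and the second window of Bco2, AGATAA (9.99%) in Rbp2, and CAAAGTCCA (0.384%) in none of the windows of these genes. A match describes letters only, and binding was not measured.

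Of 47 other genes of retinoid biology that are no members, 46 had a row and 27 were tested. In DCA 15 rose, 2 fell and 10 did not pass, beside 18.8% of all tested genes called higher and 19.2% lower. The 27 had a median log2 fold change of 0.70 in DCA, against -0.02 over all tested genes. Unadjusted p-values under 0.05 were found for 10 genes in CA and 5 in CDCA, beside 14.8% and 9.77% of all tested genes. After adjustment limma called 0 in CA (median 0.20) and 0 in CDCA (median 0.05), beside 0.577% and 0.594% of all tested genes. Without CDCA replicate 3 these adjusted calls were 4 in CA and 1 in CDCA, beside 2.20% and 0.445% of all tested genes. Against CDCA, 16 of the 27 were higher in DCA and 2, Stra6l and Ttr, lower, beside 12.8% and 15.0% of all tested genes. Against CA, 6 were higher in DCA and 1, Ttr, lower, beside 5.79% and 8.94% of all tested genes. The enzymes that interconvert retinol and retinal made up the larger part, with 8 of 12 tested higher in DCA. The alcohol dehydrogenase gene Adh1 was the most abundant of the named enzymes, at 148 to 326 TPM in DMSO, 290 to 509 TPM in CA, 172 to 435 TPM in CDCA and 782 to 994 TPM in DCA. Its DCA libraries were above all others, with a log2 fold change of 2.15 (limma adjusted p = 0.00192), and Adh4 changed by 2.47 (limma adjusted p = 0.00427). Rdh7 (3.45 times the DMSO mean in TPM), Rdh9 (1.78 on the log2 scale), Rdh5 (0.97), Dhrs9 (0.82), Rdh11 (0.79) and Dhrs3 (0.70), which encode short-chain dehydrogenases, rose as well (limma adjusted p of 0.000105 to 0.00362). Dhrs9 reached 1 TPM in the DCA libraries alone (1.16, 1.27 and 1.33 TPM, at most 0.786 TPM elsewhere) and so entered the test only because it was high there, and Cd36 entered through DCA and a pair of CA libraries. Their calls are counted in the 15 and the 16, and those of Dhrs9 also in the 6 and in the 8 of 12. These calls therefore support nothing on their own.

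Rdh9 was at 0.390 to 0.544 TPM in DMSO, 1.50 to 3.06 TPM in CA, 1.11 to 3.90 TPM in CDCA and 3.72 to 4.49 TPM in DCA. All acid libraries were above DMSO, but CA (1.12, limma adjusted p = 0.0882) and CDCA (0.95, limma adjusted p = 0.195) did not pass. It entered the test through the acid groups, being under 1 TPM in DMSO, so its DCA call, also counted above, supports nothing on its own either. Rdh9 belongs to a family of near copies with Rdh7, so the split of reads between them is uncertain.

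Aldh1a1, which oxidises retinal to retinoic acid, was at 23.4 to 52.1 TPM in DMSO, 34.5 to 64.3 TPM in CA, 17.9 to 49.2 TPM in CDCA and 104 to 145 TPM in DCA. Only the DCA libraries left the DMSO range entirely, and the log2 fold change there was 1.94 (limma adjusted p = 0.00346). All 3 tested genes of ester turnover and export rose in DCA: Mttp, which loads lipid onto chylomicrons, by 1.37 (limma adjusted p = 0.000402), Lipe, which encodes the hormone-sensitive lipase, by 1.12 (limma adjusted p = 0.000741) and Dgat1, which can also esterify retinol, by 1.05 (limma adjusted p = 0.000137). Of 6 tested carriers and uptake genes, the scavenger receptor gene Cd36 rose (1.12, limma adjusted p = 0.00672, 0.181 to 0.988 TPM in DMSO), the fatty acid and retinoic acid carrier gene Fabp5 had a log2 fold change of -0.80 (limma adjusted p = 0.00740) and the transthyretin gene Ttr one of -0.26 (limma adjusted p = 0.0279). Of 5 tested nuclear receptors, Rarg (0.75, limma adjusted p = 0.000478) and Rxra (0.33, limma adjusted p = 0.0184) rose.

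Genes known to respond to retinoic acid did not move one way. Of 9 listed, 4 were tested, and in DCA Dhrs3 rose while Rai14 and Cdx1 fell. Cyp26a1, Cyp26b1, Rarb, Stra6 and Rarres1, among them the textbook targets, were under 0.2 TPM in all 12 libraries, like the retinoic acid induced Isx.

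**Figure D5:**
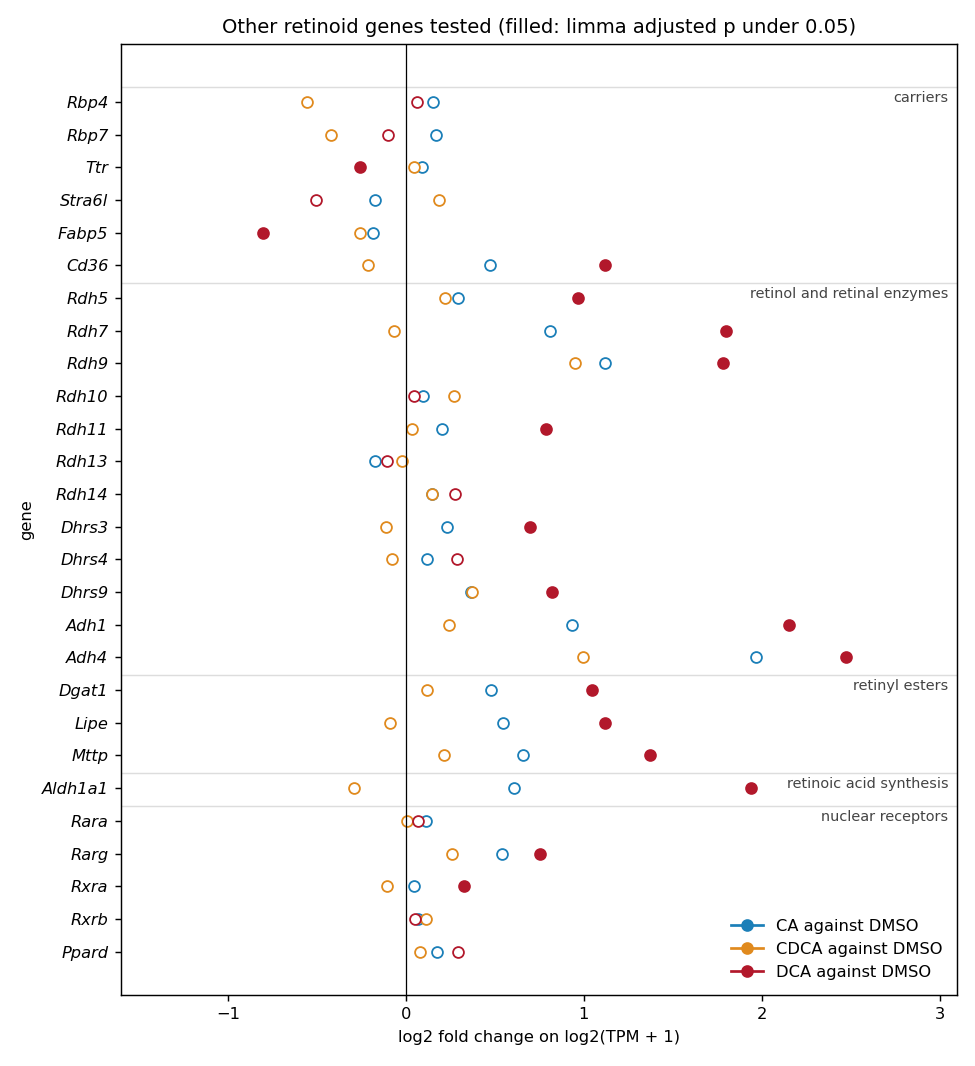
Log2 fold change against DMSO (x axis, on the log2(TPM + 1) scale) of the tested genes of retinoid biology that are no members (y axis), in CA, CDCA and DCA, with filled points for calls. In DCA 15 of 27 lie to the right of 0 and are called and 2, Fabp5 and Ttr, lie to the left, while no CA or CDCA point is called.

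The genes whose levels ran most alike over the 12 libraries were named as a description, with Pearson's r of log2(TPM + 1). All pairs share the same libraries, and the DCA libraries stand apart in most of them. Among the 6 tested members, Retsat and Scarb1 were the most alike pair (r = 0.998) and Bco1 and Bco2 the least (r = 0.764). Lrat was closest to Scarb1 (r = 0.963) and then Retsat (r = 0.958), Rbp2 and Bco1 were closest to each other (r = 0.962), and Bco2 was closest to Lrat (r = 0.940). Outside the set, Rbp2 was most like Smlr1 (0.992), Gsta1 (0.991) and Apoa4 (0.987), and Bco1 was close to Casp6 (0.972) and Slc9a3 (0.971). Bco2 was most like H2-Q1 (0.994), Btnl1 (0.993) and Coro2a (0.992), Lrat most like Ehhadh (0.981), Icosl (0.981) and Adtrp (0.980), and both Retsat (0.997 and 0.994) and Scarb1 (0.994 and 0.996) most like Dpep1 and Papss2.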

How the data were processed

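For every library the authors deposited TPM values of 32587 gene rows. The submitters' processing notes name Salmon 1.8.0 and GRCm39. Annotation, strand setting and the summing of transcripts are not given in the sources. Per the labels' protocols, poly(A) RNA was selected and second strands were marked with dUTP.

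Groups came from the sample labels. Genes with at least 1 TPM in at least 3 of the 12 libraries (11952) were tested on log2(TPM + 1) with limma 3.58.1 in R 4.3.3, with 4 group means and 8 residual degrees of freedom. The fit used limma's trend and robust options, and two-sided p-values were adjusted by Benjamini-Hochberg at 0.05 within each of 6 comparisons. The code was tested on simulated data. Permutation tests were exact. Replicate numbers did not pair the libraries. No depth is available from TPM.

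The members and gene lists were chosen with earlier results of these data known. The rule for names took all 8 members, up to 12 retinoid genes with the smallest p among those called in the comparison described plus paralogs, the exposure check, and for each tested member the 3 genes of mean log2 of at least 2 with the highest r, of which 1 for Bco1 is not reported here. Names beyond it (Fabp5, Ttr, Rxra and other genes of the retinoid lists, Il18) were chosen after their values were seen. Alternatives were other filters, pseudocounts and scalings, a replicate block, fits on 6 libraries, no trend, leaving out mitochondrial and rRNA rows, and leaving out libraries. Upstream sequences are from a RefSeq table on GRCm38.p6, and no coordinates of the authors' build were used.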

Additional observations from a re-analysis of the deposited data

How the results depend on the processing

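The 6 calls of these genes in DCA against CDCA numbered 6 in every leave-out of 1 library, those in DCA against DMSO 5 to 6, and those in DCA against CA 3 to 4. For CA against DMSO the leave-outs gave 0 to 1 calls and for CDCA against DMSO 0 to 1. The single CA call became 0 with no filter on low values (Bco2 adjusted p = 0.120), median-ratio scaling (0.0888), fits on 6 libraries (0.0742), no trend (0.0675) and mitochondrial and rRNA rows left out (0.0676). With a replicate block it was also 0 (0.0616). The same-numbered libraries did not deviate together (r from -0.378 to 0.109 over 18 pairs), so the block was not used. Leaving out CDCA replicate 3 and DMSO replicate 1 together, the libraries with the highest enterocyte sums of their groups, gave 3 calls in CA against DMSO (Bco2, Retsat and Scarb1), 1 in CDCA against DMSO (Bco2) and 4 in CDCA against CA, where Rbp2 (-1.49, limma adjusted p = 0.0181), Bco2 (-0.58, 0.0437), Retsat (-0.56, 0.0193) and Scarb1 (-0.46, 0.0411) were lower in CDCA. Calls rose over all tested genes too in this setting. Their share went from 0.577% to 8.10% in CA against DMSO and from 0.594% to 0.656% in CDCA against DMSO. In CDCA against CA it went from 0.0335% to 3.69%. The counts of other retinoid genes called, 0 in CA and 0 in CDCA, became 1 in CA with a pseudocount of 0.1, 10 in CA and 1 in CDCA with both libraries left out, and 0 to 4 in CA and 0 to 1 in CDCA over the single leave-outs. The share of all tested genes called in CA was 0.644% with that pseudocount. With both libraries left out it was 8.10% in CA and 0.656% in CDCA. In DCA the leave-outs gave 14 to 18. Rbp2 in DCA against CA passed in a fit on the 6 libraries compared (limma adjusted p = 0.0263) and with CDCA replicate 3 and DMSO replicate 1 left out (0.0417). Signs turned in the following results, none of them called. With the median of the enterocyte markers in place of their mean, the relative values were -0.19 for Rbp2 in CA, -0.24 for Rbp2 in DCA, and in CDCA -0.17 for Lrat, -0.24 for Retsat and -0.23 for Scarb1. Over the single leave-outs, Lrat in CDCA against CA ran from -0.12 to 0.039, Retsat in CDCA against DMSO from -0.12 to 0.21, Scarb1 there from -0.095 to 0.17, and relative to the markers Lrat in CDCA from -0.00024 to 0.31, Scarb1 in CDCA from -0.012 to 0.18, Rbp2 in CA from -0.072 to 0.11 and Retsat in DCA from -0.065 to 0.040. The cause was not tested. Leaving out 13 mitochondrial and 2 rRNA rows moved the median of all genes in DCA against DMSO from -0.02 to -0.11 and its calls from 2245 higher and 2300 lower to 1913 higher and 3498 lower. Calls in CDCA against DMSO went from 61 higher and 10 lower to 60 higher and 28 lower under median-ratio scaling.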
